A study of Rattus norvegicus with 60 samples.

Results

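The response of mesenteric adipose tissue, the fat depot that hangs from the gut, to an ischaemic stroke was examined in female rats. The members were chosen by their labels: the 16 adipose libraries of females out of 60 libraries in the series, 8 from animals with a stroke and 8 from stroke-naive animals. The stroke animals were 4 whose dams had inhaled ethanol vapour (prenatal alcohol exposure, PAE) and 4 whose dams had inhaled room air (controls), and the naive animals were 4 PAE and 4 control females. All were 5-month-old Sprague-Dawley rats, and the dams were exposed for 12 days between gestational days 8 and 20. Stroke was produced by occluding the middle cerebral artery 2 days before dissection, and the naive animals were littermates without it. The labels describe no sham operation, so the occlusion and the surgery around it cannot be told apart. They also do not say whether each library came from a different litter, so the p-values measure the spread between these libraries. The comparison asks which genes of a distant fat depot change after a brain injury, with both exposures pooled.

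White fat cells store fatty acids as triglyceride and release them by lipolysis, which catecholamines drive and insulin, adenosine and hydroxy acids restrain. Insulin also brings glucose into the cell through the transporter GLUT4, and part of that glucose is turned into fatty acids or into the glycerol backbone of triglyceride. Mitochondria in fat cells burn part of the stored fuel and supply citrate for fatty acid synthesis, and fatty acids enter them through carnitine palmitoyltransferase 1. Mesenteric fat also holds vessels, lymphatics, immune cells and nerves, so total RNA of the tissue is a mixture of all of them.

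Counts per library summed to between 11.8 and 22.0 M (mega), with a median of 14.8 M, and between 4.74 and 13.3 M lay outside ribosomal RNA (rRNA). Nuclear rRNA took 18.2 ± 7.80% of counts in stroke and 20.1 ± 13.8% in naive libraries (SD, n = 8 each), with a highest value of 50.0% in PAE naive 1, and mitochondrial rRNA took 21.2 ± 4.41% and 22.7 ± 5.76%. Neither share differed beyond the spread (adjusted p = 0.754 for both, exact permutation test within exposure, two-sided), nor did that of haemoglobin (adjusted p = 0.289). The Y-linked genes Kdm5d, Uty and Eif2s3y had 0 counts in the 16 female libraries and summed to 1203 to 4953 counts in the 14 male ones, as the labels have it. Y-linked Ddx3y had at most 3 counts in any female library. Fat cell markers were abundant: 12 of them, among them Adipoq and Fabp4, summed to 30975 to 46043 counts per M counts (CPM) in stroke and 29882 to 53326 CPM in naive libraries.

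The libraries differed in their levels of neuron and smooth muscle genes. Summed over the neuron genes Snap25, Stmn2, Tubb3 and Uchl1, the level was lowest at 3.84, median 12.1 and highest 37.4 CPM in stroke libraries, against 6.04, 32.2 and 85.7 CPM in naive libraries. The groups overlapped, and 3 stroke libraries (control 1, PAE 2 and PAE 4) and 4 naive libraries (control 1 and 4, PAE 2 and 4) lay above 20 CPM. A list of 12 genes of enteric neurons had 12 members tested and a median log2 change of −1.44, with none called in edgeR or DESeq2 and none at an unadjusted p under 0.05. The 10 markers of mural and smooth muscle cells summed to 1960, 3638 and 5987 CPM in stroke and 1538, 3752 and 13356 CPM in naive libraries, with the muscle-rich extreme in a naive library. Pancreatic acinar genes summed to at most 75.4 CPM in stroke and 17.5 CPM in naive libraries, and the intestinal epithelium genes Cdx2 and Alpi never exceeded 3 counts. The part of these cells in the other changes was not tested, and the 7 libraries over 20 CPM are called neuron-rich here.

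**Figure D1:**
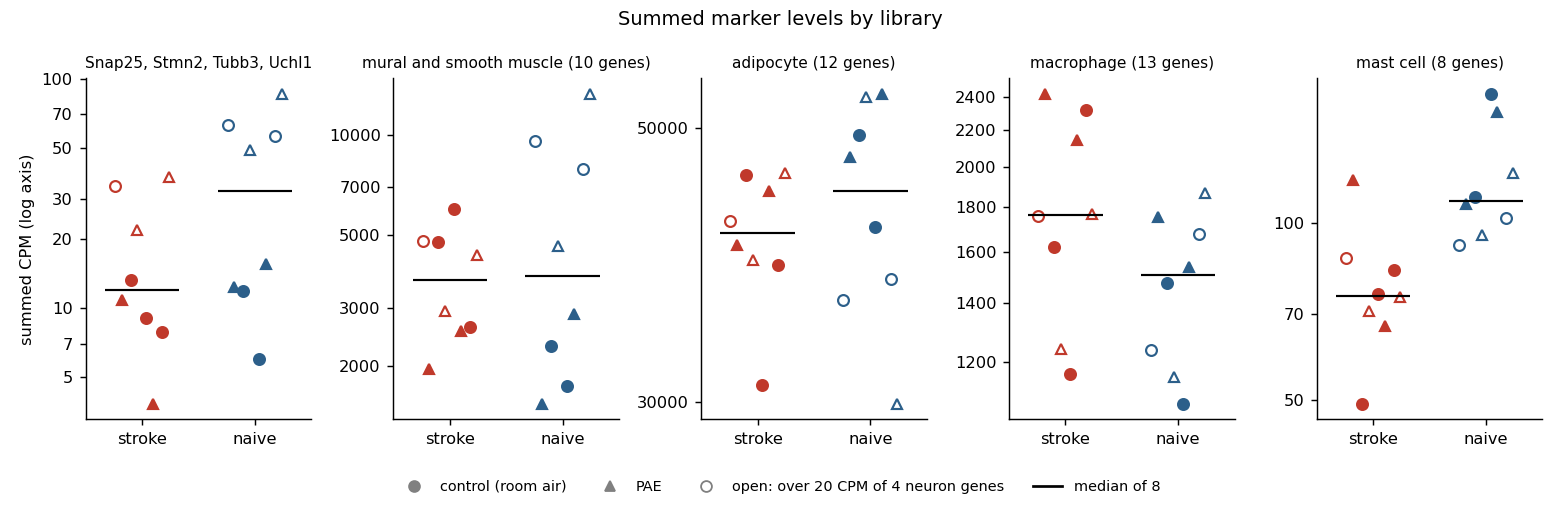
Summed CPM of marker genes in each female library on a log axis, stroke libraries on the left and naive libraries on the right of each panel; circles are controls, triangles PAE, open symbols libraries over 20 CPM of the 4 neuron genes, and bars the median of 8. Neuron genes had medians of 12.1 CPM in stroke and 32.2 CPM in naive libraries, mast cell genes 75.2 and 109 CPM, and fat cell genes overlapped.

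Stroke changed 950 of 17072 genes tested (5.56%) at an adjusted p under 0.05 in edgeR's quasi-likelihood test, 588 higher (3.44%) and 362 lower (2.12%). Most changes were small: 131 of the called genes moved more than 2-fold, 67 upwards and 64 downwards, and the median log2 change of all genes was −0.01. In 129 genes (0.756%) the 8 stroke libraries did not overlap the 8 naive libraries, 0.498% with all stroke libraries above and 0.258% with all below, and 126 of these were called. All 950 had the same sign in control and in PAE females, which choosing genes by the pooled change favours. Of them, 9 were called within control females, 123 within PAE females and 2 in both. The number depended on single libraries: it was 551 without control naive 1, 602 without control naive 3, 609 without control stroke 4 and 597 without PAE stroke 3. Without the 7 neuron-rich libraries, which leaves 5 stroke and 4 naive, 17059 genes were tested. Of these 17 passed in edgeR, 617 in DESeq2 and 2607 had an unadjusted p under 0.05. Cpt1b was then the 1 member of any gene list that edgeR called. With the neuron level as a covariate 576 passed. With all 16 libraries DESeq2 called 1747 of the 17072 genes, and 3955 had an unadjusted p under 0.05. Of 74 called genes named by rule, 2 (Cpt1b and Tmprss2) passed every alternative, 48 passed without any 1 of the 16 libraries, and all 74 kept their sign in every fit. Those fits share libraries with the fit that chose the genes, so the kept signs are no independent test.

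The gene with the smallest p was Cpt1b, the muscle-type carnitine palmitoyltransferase 1 that brings long-chain fatty acids into mitochondria. Its lowest, median and highest levels were 49.1, 55.05 and 92.0 CPM in stroke females, against 13.5, 16.7 and 20.8 CPM in naive females. Every stroke library lay above every naive one. The log2 change was 1.85 ± 0.109 (SE), 3.61-fold, with an adjusted p of 1.22e-07, and it was 1.70 without the neuron-rich libraries. The change was 2.05 in PAE and 1.66 in control females. The other members of the fatty acid oxidation list moved little: of 29 tested, Cpt1b and the lipid-sensing receptor Ppara rose and none fell, with a list median of 0.12. Over the 16 fits that leave out 1 library the list had between 1 and 7 members higher, 7 without control naive 2. Ppara, at 0.40 ± 0.112 (adjusted p = 0.0481), kept its call in 4 of those fits, at a log2 change between 0.33 and 0.46.

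**Figure D2:**
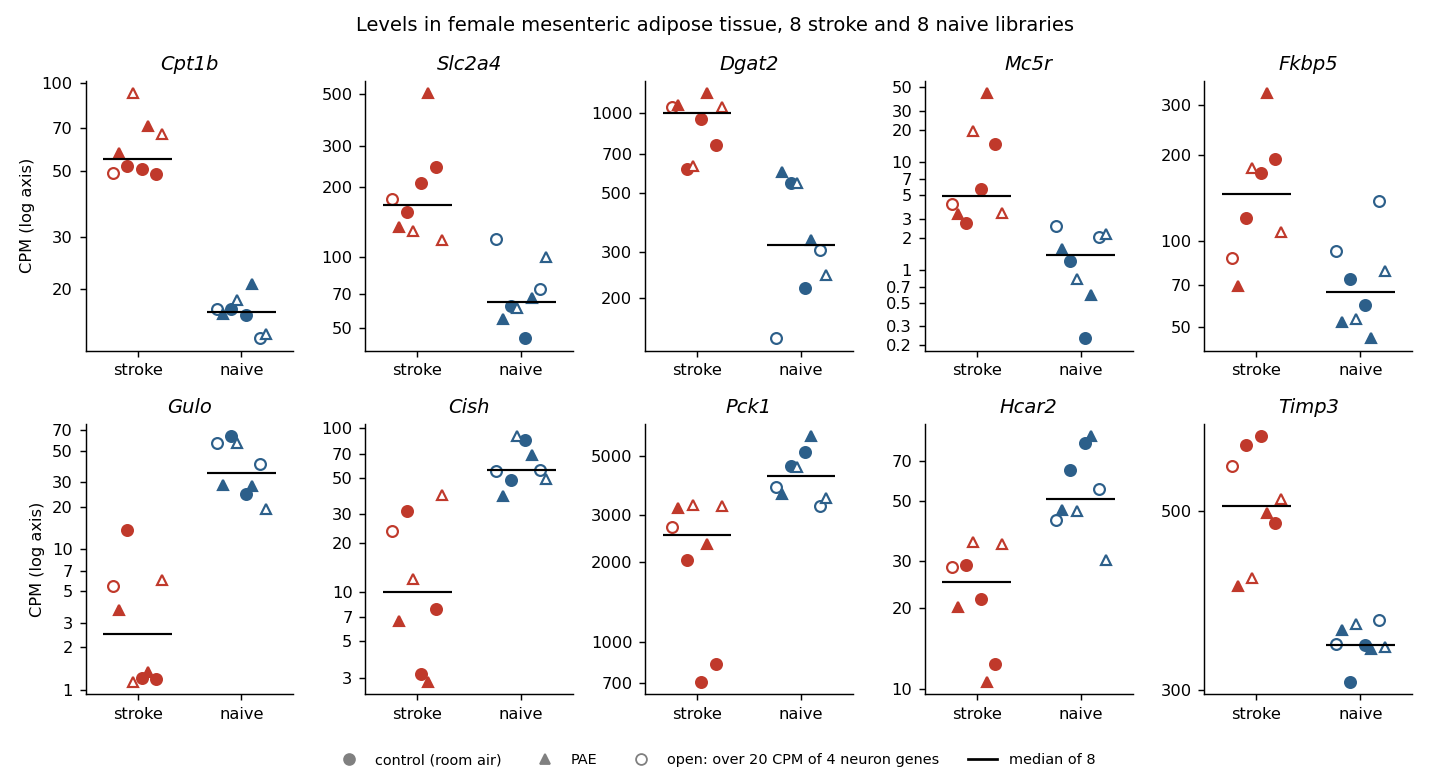
CPM of 10 genes in each female library on a log axis, stroke on the left and naive on the right of each panel; circles are controls, triangles PAE, open symbols libraries over 20 CPM of the 4 neuron genes, and bars the median of 8. Cpt1b, Dgat2, Mc5r, Gulo and Timp3 show no overlap of stroke and naive libraries, while Slc2a4, Fkbp5, Cish, Pck1 and Hcar2 overlap.

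Nuclear genes of the respiratory chain held the most called genes of any list. Of 68 members tested, 34 were higher, none lower and 67 had a positive sign, with a median log2 change of 0.33, against −0.01 over all genes, and the 34 were 50% of the list against 3.44% of all genes tested. Called members came from each of the complexes. Complex I subunits included Ndufs3 (0.48 ± 0.0830) and Ndufs1 (0.56 ± 0.0993), and the succinate dehydrogenase anchor Sdhd of complex II rose by 0.52 ± 0.0856 (adjusted p = 0.00496). Among complex III and IV genes, Cyc1 rose by 0.57 ± 0.114, Uqcrh by 0.36 ± 0.0658 and Cox5a by 0.53 ± 0.0918. Atp5po, the stalk subunit of ATP synthase, was at 145, 162 and 245 CPM in stroke females (lowest, median, highest), against 102, 112 and 139 CPM in naive females. The groups did not overlap, and the log2 change was 0.55 ± 0.0961 (adjusted p = 0.00564). Cycs, which encodes the electron carrier cytochrome c, was at 94.1, 112 and 178 CPM in stroke females and 54.0, 67.2 and 96.1 CPM in naive females. The ranges of Cycs met only at their ends, and the log2 change was 0.79 ± 0.138 (adjusted p = 0.00616). The number of respiratory chain genes called fell to 21 without control naive 1 and to 22 without control naive 3; without PAE stroke 3 it was 23. It was 19 with the neuron covariate and 0 without the 7 neuron-rich libraries. In that last fit DESeq2 called 1 of the 68, against 617 of all 17059 genes. An unadjusted p under 0.05 was found for 25 of the 68, against 2607 of all genes. In it 65 of 68 had a positive sign and the median was 0.29.

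The mitochondrial ribosome, which makes the proteins encoded in mitochondrial DNA, also had a share of genes that rose. Of 76 genes tested, 23 rose (30.3%, against 3.44% of all genes), none fell and 70 had a positive sign, with a median of 0.25. This list was added after the values had been seen. Mrpl12 was at 51.1, 58.1 and 69.5 CPM in stroke females, against 25.9, 37.9 and 42.3 CPM in naive females, with no overlap and a log2 change of 0.73 ± 0.0993 (adjusted p = 0.00174). Mrps12 rose by 0.47 ± 0.0796 and Mrpl4 by 0.57 ± 0.0951. The count was 12 without control naive 1, 13 without PAE stroke 3 and 0 without the 7 neuron-rich libraries. In that last fit DESeq2 called 2 of the 76, against 617 of all 17059 genes. An unadjusted p under 0.05 was found for 20 of the 76, against 2607 of all genes, and the median was 0.22. Of 20 citrate cycle genes, 5 rose (25%, against 3.44% of all genes) and none fell, with a median of 0.31: Mdh1, Mdh2, Dld, Dlst and Pdhb. The cytosolic malate dehydrogenase Mdh1 was at 862, 992 and 1668 CPM in stroke females and 535, 621 and 927 CPM in naive females, a log2 change of 0.61 ± 0.146 (adjusted p = 0.0236) whose call was lost without control naive 1, at a log2 change between 0.51 and 0.69 over all 16 fits. Without that library 2 citrate cycle genes were called, and without PAE naive 3, 9 were. The mitochondrial chaperonin pair Hspd1 (0.63 ± 0.128) and Hspe1 (0.54 ± 0.109) were the 2 of 15 heat shock genes called, both with an adjusted p of 0.0114, and the stroke and naive libraries did not overlap for Hspe1. Other mitochondrial genes, picked after their values were seen, were Letm1, an ion exchanger of the inner membrane (0.45 ± 0.0648), Aifm1 (0.60 ± 0.0941), the cytochrome oxidase assembly factor Cox14 (0.62 ± 0.105) and Higd1a, a respiratory chain modulator (0.79 ± 0.102), none of which overlapped between the groups. Over all genes tested 0.756% had no overlap, and its absence in genes picked this way is no test.

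Promoters of the mitochondrial genes are shown because many members moved together. Of the 17072 genes tested, 12363 had an entry in the RefSeq promoter table (build GRCr8, 250 bases before and 50 after the start site). The letters CCGGAAG, a core that ETS factors bind, were found on either strand in 30% of the promoters of the respiratory chain list (18 of 60) and in 32.8% of those of the mitochondrial ribosome list, against 15.3% of all promoters. In the respiratory chain list an exact match of the YY1 motif was found in 13.3% of promoters (8 of 60), against 1.62% of all. The NRF1 motif was found in 5% (3 of 60), against 1.63%. TCAAGGTCA was found in 1 of 60 promoters of that list (1.67%), that of Sdhd, against 0.275% of all promoters. None of the 61 promoters of the mitochondrial ribosome list held it. In the respiratory chain list CCAAT was found in 28.3%, against 37%, and the E-box letters CACGTG in 6.67%, against 8.77%. The share with CCGGAAG was 19.2% among genes that rose and 9.38% among genes that fell. A match is a description of the letters only. Capitals mark the matches of CCGGAAG (read as CTTCCGG) and of TCAAGGTCA, the estrogen-related receptor motif (read as TGACCTTGA), in Sdhd, and of CCAAT in Cycs; both promoters are printed in the direction of the gene.
Sdhd, chr8:59850592-59850891, minus strand: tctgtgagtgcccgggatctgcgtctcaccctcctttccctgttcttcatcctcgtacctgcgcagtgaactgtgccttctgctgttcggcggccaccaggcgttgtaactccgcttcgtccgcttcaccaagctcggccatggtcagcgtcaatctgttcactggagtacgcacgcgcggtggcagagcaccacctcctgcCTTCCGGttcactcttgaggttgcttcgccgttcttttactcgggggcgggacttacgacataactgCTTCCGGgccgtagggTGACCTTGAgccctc
Cycs, chr4:80984718-80985017, minus strand: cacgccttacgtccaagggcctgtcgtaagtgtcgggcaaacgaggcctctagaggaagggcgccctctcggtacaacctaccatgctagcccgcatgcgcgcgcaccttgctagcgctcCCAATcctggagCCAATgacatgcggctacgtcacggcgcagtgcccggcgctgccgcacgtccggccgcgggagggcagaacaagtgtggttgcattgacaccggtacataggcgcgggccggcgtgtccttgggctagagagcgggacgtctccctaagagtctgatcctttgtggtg

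The glucose transporter gene Slc2a4 and members of the glycolysis and fat synthesis lists were among the genes that rose. Slc2a4, which encodes GLUT4, was at 118, 167 and 501 CPM in stroke females, against 45.1, 64.6 and 120 CPM in naive females, and the ranges met only at their ends. Its log2 change was 1.52 ± 0.297 (adjusted p = 0.0105), and 2.14 without the 7 neuron-rich libraries (adjusted p = 0.0629). Of 17 glycolysis genes, a list added after the values had been seen, 6 rose and none fell, with a median of 0.48. The 6 were 35.3% of the list, against 3.44% of all genes tested. Pgk1, at 186, 198 and 276 CPM in stroke and 124, 146 and 171 CPM in naive females, did not overlap and rose by 0.53 ± 0.0688 (adjusted p = 0.00173). Pgam1 rose by 0.65 ± 0.0829, Eno1 by 0.79 ± 0.151, Gpi by 0.49 ± 0.0950 and Pfkl by 0.93 ± 0.194, each without overlap, and Aldoa by 0.75 ± 0.177. Among all genes tested 0.756% had no overlap. The count stayed at 6 with the neuron covariate and without PAE stroke 3, and was 0 without the 7 neuron-rich libraries. In that last fit DESeq2 called 10 of the 17, against 617 of all 17059 genes. An unadjusted p under 0.05 was found for 11 of the 17, against 2607 of all genes, and the median was 0.53.

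Of 25 genes of fatty acid and triglyceride synthesis, 8 rose and 1 fell (36% called, against 5.56% of all genes), with a median of 0.64. Dgat2, which attaches the last fatty acid to make triglyceride, was at 614, 995 and 1183 CPM in stroke females, against 141, 318 and 600.4 CPM in naive females. The groups did not overlap, and the log2 change was 1.33 ± 0.257 (adjusted p = 0.00994). Mlxipl, which encodes the glucose-sensing factor ChREBP, rose by 1.08 ± 0.223 (adjusted p = 0.0135), the desaturase genes Scd2 and Fads1 by 1.03 ± 0.235 and 0.66 ± 0.150, and Gpam, which starts glycerolipid synthesis, by 0.89 ± 0.221. Acly, which splits citrate into acetyl-CoA, was at 265, 427 and 4147 CPM in stroke females and 183, 228 and 343 CPM in naive females. The highest value was PAE stroke 3, and without it the log2 change of Acly was 1.04 (adjusted p = 0.0646) in place of 2.02 ± 0.529 (adjusted p = 0.0372). Its call was also lost without any 1 of control naive 1, 3 or 4, PAE naive 1, 2, 3 or 4, or control stroke 3 or 4. Fasn (2.30 ± 0.659, adjusted p = 0.0518) and Elovl6 (1.90 ± 0.557, adjusted p = 0.0562) missed the threshold, and Fasn reached 29771 CPM in PAE stroke 3. The list had 4 higher and none lower without that library, and between 4 and 9 higher over the 16 fits. It was moved by more than 1.5 times by leaving out any 1 of control naive 1, 3 or 4, PAE naive 4, control stroke 3 or 4, or PAE stroke 3. With the neuron covariate 1 rose. Without the 7 neuron-rich libraries edgeR called none and DESeq2 7 of the 25, against 617 of all 17059 genes by DESeq2. An unadjusted p under 0.05 was found for 13 of the 25, against 2607 of all genes, and the median was 0.69. The letters CCAAT were found in 73.7% of the promoters of this list (14 of 19), in 46% of those of all genes that rose and in 37% of all promoters.

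**Figure D3:**
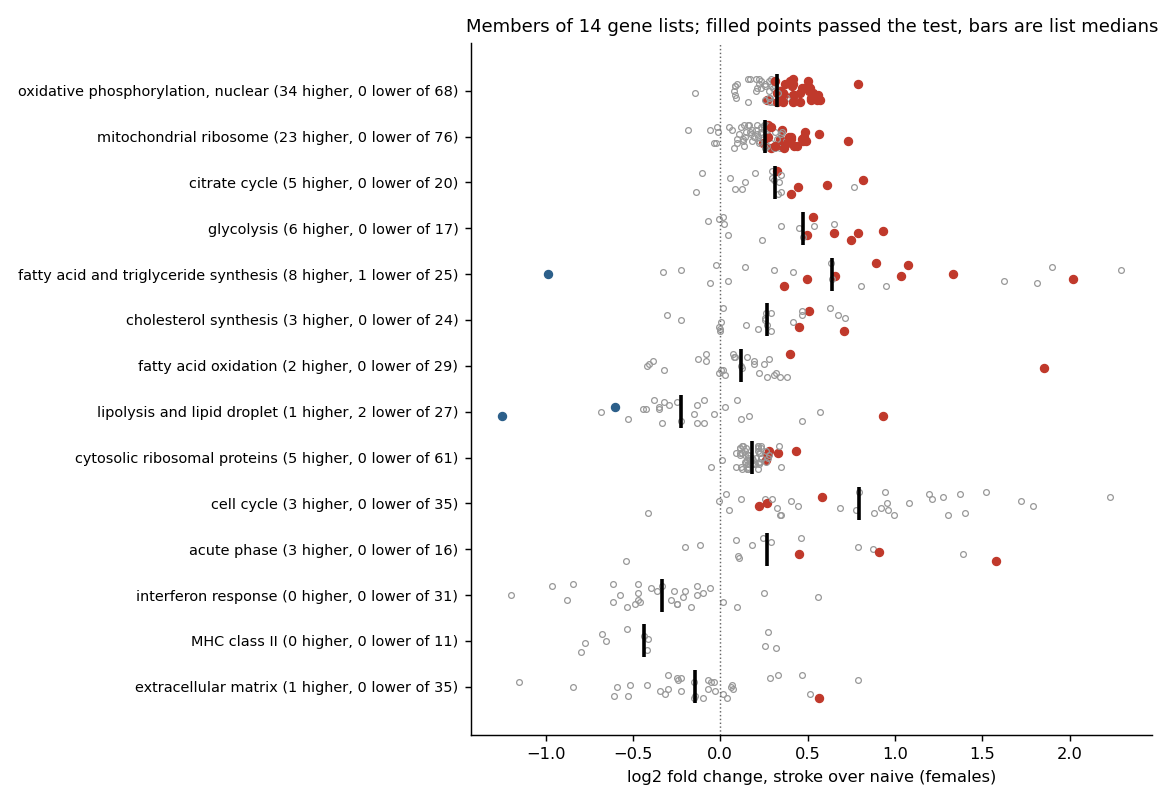
Log2 fold change, stroke over naive, of each tested member of 14 gene lists in females; filled points passed the test, open points did not, and bars are list medians. Respiratory chain (34 of 68), mitochondrial ribosome (23 of 76) and glycolysis (6 of 17) genes rose with none lower, and interferon and MHC class II genes lie mostly to the left of 0 with none called. Of all genes tested 3.44% were called higher and 2.12% lower.

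The 1 member of that list that fell was Pck1, which encodes cytosolic phosphoenolpyruvate carboxykinase, the enzyme that lets fat cells make glycerol from pyruvate. It was at 710, 2521 and 3274 CPM in stroke females, against 3263, 4205 and 5943 CPM in naive females. The ranges met only at their ends, and the log2 change was −0.99 ± 0.267 (adjusted p = 0.0417). The call was lost without any 1 of control naive 1 to 4, PAE naive 2 or 3, control stroke 2 or 4, or PAE stroke 3, with a log2 change between −1.12 and −0.84 over the 16 fits. Of 27 genes of lipolysis and lipid droplets, 1 rose and 2 fell, with a median of −0.22; 2 rose without control stroke 3, PAE stroke 1 or PAE stroke 4, and 4 fell without PAE naive 4. Both that fell encode receptors that restrain lipolysis. Hcar2, the receptor for the ketone body hydroxybutyrate, was at 10.7, 24.9 and 35.2 CPM in stroke and 30.04, 50.8 and 86.6 CPM in naive females (log2 change −1.25 ± 0.270, adjusted p = 0.0159). Hcar1, the lactate receptor, fell by 0.60 ± 0.125 on the log2 scale (adjusted p = 0.0130). The adenosine receptor Adora1, which also restrains lipolysis, rose by 0.93 ± 0.211 (adjusted p = 0.0190). The lipases and coat genes themselves did not pass: log2 changes were −0.38 ± 0.149 for Pnpla2 (adjusted p = 0.141), 0.09 ± 0.131 for Lipe and −0.15 ± 0.115 for Plin1, and −0.32 ± 0.204 for the adrenergic receptor Adrb3. Of 19 insulin and glucose uptake genes Slc2a4 rose and Irs2 fell, with 8 of positive sign and a median of −0.07. Irs2, an insulin receptor substrate, fell by 0.66 ± 0.170 on the log2 scale (adjusted p = 0.0344) and kept its call in 5 of 16 fits that leave out 1 library. It lost the call without any 1 of control naive 1, 3 or 4, PAE naive 2 or 3, control stroke 1 to 4, or PAE stroke 1 or 3, between −0.73 and −0.57.

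Among hormone-related genes, Cish had the largest decrease in the growth hormone list. Cish encodes a feedback inhibitor that cytokine and growth hormone receptors induce through STAT5. It was at 2.84, 9.99 and 39.1 CPM in stroke females, against 38.6, 55.4 and 89.2 CPM in naive females, and the ranges met only at their ends. The log2 change was −1.99 ± 0.464 (adjusted p = 0.0220), with −2.81 without the 7 neuron-rich libraries (adjusted p = 0.104). Of the 13 genes of that list, which was added after the values had been seen, Cish and Igfbp2 fell (Igfbp2 by 1.31 ± 0.329 on the log2 scale, adjusted p = 0.0307) and none rose, with 1 lower without control naive 1, control naive 3 or control stroke 4. The growth hormone receptor Ghr (0.40 ± 0.128), Socs2 (−0.54 ± 0.165) and Igf1 (−0.55 ± 0.191) did not pass. The promoter of Cish is shown with its TTCNNNGAA matches, the letters that STAT factors bind, in capitals; it held 4, and the last overlaps a match of CCGGAAG read as CTTCCGG, while 6.81% of all promoters held at least 1.
Cish, chr8:116850719-116851018, plus strand: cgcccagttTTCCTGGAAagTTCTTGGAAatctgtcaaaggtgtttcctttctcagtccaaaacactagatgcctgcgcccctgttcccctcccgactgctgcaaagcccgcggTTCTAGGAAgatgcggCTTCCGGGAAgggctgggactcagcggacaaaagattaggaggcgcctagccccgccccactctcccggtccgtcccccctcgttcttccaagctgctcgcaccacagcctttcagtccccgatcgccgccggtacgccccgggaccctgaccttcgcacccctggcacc

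Mc5r, a melanocortin receptor of fat cells and glands, was at 2.72, 4.89 and 43.4 CPM in stroke females, against 0.232, 1.38 and 2.55 CPM in naive females. The groups did not overlap, and the log2 change was 2.93 ± 0.635 (adjusted p = 0.0163). Mrap, an accessory protein that brings melanocortin receptors to the cell surface, rose by 1.11 ± 0.283 (adjusted p = 0.0330), but not without control naive 1, 3 or 4, control stroke 4, or PAE naive 1, 2 or 4. Mrap was taken from a melanocortin list added after the values had been seen. Of its 3 genes tested, Mc5r and Mrap rose and the other stood at −0.37 without a call. All 7 genes of the list summed to a median of 174.6 CPM in stroke and 198.5 CPM in naive libraries. Fkbp5, a co-chaperone that glucocorticoids induce, was at 69.6, 147 and 329 CPM in stroke and 45.5, 66.4 and 138 CPM in naive females, a log2 change of 1.12 ± 0.306 (adjusted p = 0.0442). Its call was lost without any 1 of control naive 1 to 3, PAE naive 1 to 4, control stroke 3 or 4, or PAE stroke 2 or 3, with a log2 change between 0.86 and 1.28. Of 23 glucocorticoid-responsive genes it was the only one to rise and Gadd45g (−0.93 ± 0.183) the only one to fall, with a list median of 0.19. Srd5a1, which makes dihydrotestosterone, rose by 0.84 ± 0.185 (adjusted p = 0.0169). Among adipokines Sfrp5, a Wnt-binding protein, rose by 1.496 ± 0.366 (adjusted p = 0.0274), but not without control naive 3, control naive 4 or PAE stroke 3 (log2 change 1.16 to 1.67 over the 16 fits). Adipoq (−0.47 ± 0.138, adjusted p = 0.0538) and Lep (0.51 ± 0.482) did not pass.

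The share of genes called differed between the inflammatory and immune lists. Against 5.56% of all genes, it was 18.8% for acute phase, 33.3% for monocyte and neutrophil and 25% for mast cell genes. It was 0% for cytokine, macrophage, interferon and MHC class II genes. For reference, DESeq2 called 1747 of all 17072 genes, and 3955 of them had an unadjusted p under 0.05. Of 21 cytokine and chemokine genes edgeR called 0 and DESeq2 1, with 4 at an unadjusted p under 0.05 and a median of −0.08. edgeR called 1 or 2 genes of the list lower without control naive 2 or 4, control stroke 2, 3 or 4, or PAE stroke 2. Ccl2 stood at 0.10 ± 0.444; Il6 was too low to be tested. Of 16 acute phase genes 3 rose and none fell, with a median of 0.27. Of the 16, 13 had a positive and 3 a negative sign, the lowest at −0.54. Hp, 1 of the fixed genes, stood at −0.38 with the neuron covariate and was not called in that fit. Lcn2, an iron-scavenging protein of innate immunity, was at 5.43, 22.7 and 60.8 CPM in stroke females, against 6.46, 8.39 and 9.76 CPM in naive females. The lowest stroke library lay below every naive one, and the log2 change was 1.58 ± 0.313 (adjusted p = 0.0110). Lbp, which presents bacterial lipopolysaccharide, rose by 0.91 ± 0.173 (adjusted p = 0.00885). Of 6 monocyte and neutrophil markers tested 1 rose and 1 fell, with 4 of positive sign and a median of 0.36. S100a9 rose by 2.35 ± 0.452 (adjusted p = 0.00913), at no more than 4.45 CPM in stroke and 0.697 CPM in naive libraries. The neutrophil chemokine receptor Cxcr2 fell by 1.29 ± 0.344 on the log2 scale (adjusted p = 0.0401), but not without any 1 of control naive 2 to 4, PAE naive 1 to 3, control stroke 2 or 4, or PAE stroke 1 to 3 (log2 change −1.44 to −1.04 over the 16 fits). Outside the list the myeloid gene Trem3 rose by 2.05 ± 0.329 (adjusted p = 0.00404). Of 12 macrophage markers edgeR called 0 and DESeq2 1, with 2 at an unadjusted p under 0.05 and 11 of positive sign at a median of 0.29; 1 was called higher without control naive 4 or control stroke 3. Their sum was 1165, 1764 and 2420 CPM in stroke and 1077, 1509 and 1866 CPM in naive libraries. Of 8 mast cell markers 2 fell, the protease gene Mcpt2 in 2 of the 16 fits that leave out 1 library and Kit in all 16. Kit, the stem cell factor receptor, fell by 0.76 ± 0.135 on the log2 scale (adjusted p = 0.00633). All 8 mast cell genes had a negative sign at a median of −0.56, and their sum was 49.2, 75.2 and 118 CPM in stroke and 91.7, 109 and 165 CPM in naive libraries. In these bulk libraries fewer cells of a type and less RNA per cell cannot be told apart. Of 31 interferon-stimulated genes edgeR called 0 and DESeq2 3, all lower, with 13 at an unadjusted p under 0.05 and a median of −0.34; 1 was called lower without control naive 2 or PAE naive 3, and 1 higher without PAE naive 4. Of 11 MHC class II genes both tools called 0, with 2 at an unadjusted p under 0.05 and a median of −0.44. Without the 7 neuron-rich libraries those medians were 0.0043 and −0.02, and that of the 10 mural cell markers was 0.47 in place of −0.55.

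**Figure D4:**
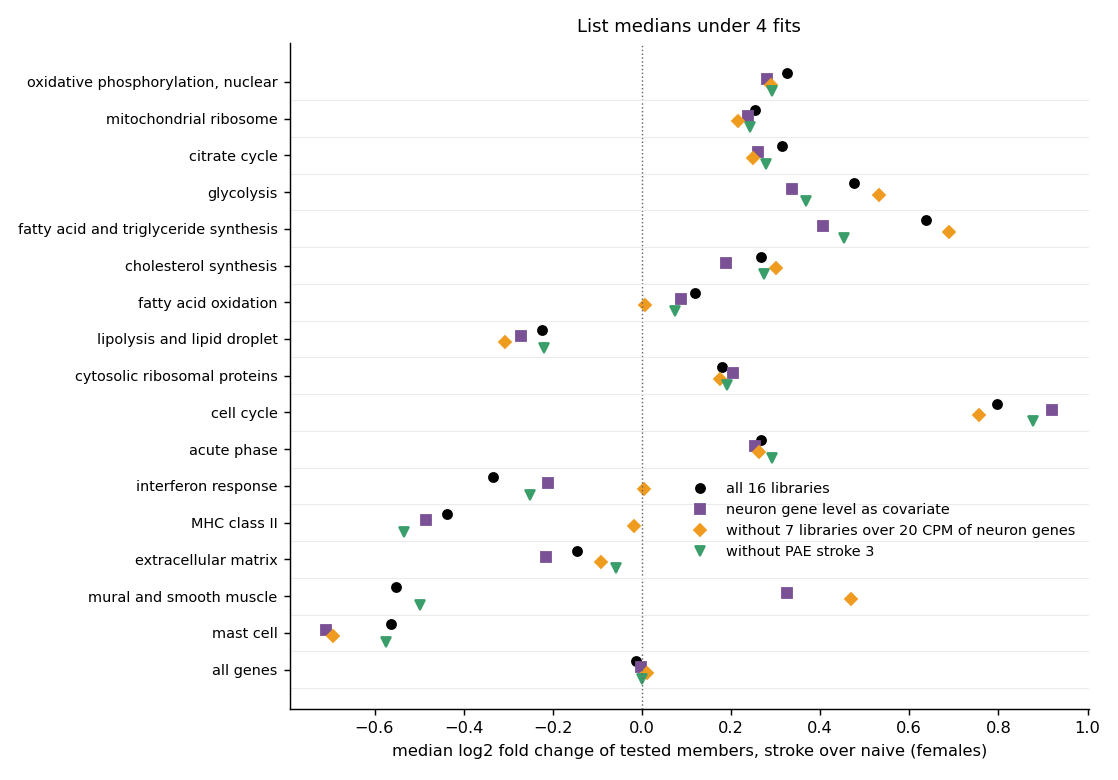
Median log2 fold change of the tested members of each list, stroke over naive in females, in 4 fits: all 16 libraries, with the neuron gene level as a covariate, without the 7 libraries over 20 CPM of neuron genes, and without PAE stroke 3. Respiratory chain medians lie between 0.28 and 0.33 in these fits, while the mural cell median is −0.55 with all libraries and 0.47 without the 7.

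Of 61 cytosolic ribosomal proteins 60 had a positive sign and 5 rose (8.2%, against 3.44% of all genes), none fell, with a median of 0.18; DESeq2 called 20, all higher, and 41, all higher, had an unadjusted p under 0.05; among them was Rps28 (0.44 ± 0.0773, adjusted p = 0.00633). The count varied between 1 and 19 over the 16 fits that leave out 1 library, with 1 without control naive 1 or PAE naive 2, 2 without control naive 3, control stroke 1, control stroke 4 or PAE stroke 2, 3 without PAE stroke 1, 3 or 4, 16 without control naive 2 and 19 without control stroke 3. Of 35 cell cycle genes, 33 had a positive sign at a median of 0.80. All 3 that passed rose (8.57%), DESeq2 called 5 higher, and 24 had an unadjusted p under 0.05, 23 of them higher. The count was 1 without control naive 1, control naive 3, control stroke 1, control stroke 4 or PAE stroke 1. Ccnd2, a cyclin of the start of the cycle, was at 176, 231 and 281 CPM in stroke and 108, 150 and 219.6 CPM in naive females, a log2 change of 0.58 ± 0.114 (adjusted p = 0.0101). The mitotic genes Mki67 (1.37 ± 0.538, adjusted p = 0.140) and Top2a (1.79 ± 0.649, adjusted p = 0.113) did not pass. Of 24 endoplasmic reticulum stress genes Sdf2l1 (0.72 ± 0.163) was 1 of 2 that rose; the other, Edem1, lost its call without control naive 1, control naive 3, control stroke 4, PAE naive 1, PAE naive 2 or PAE stroke 1 (log2 change 0.32 to 0.43 over the 16 fits). Bhlhe41, a repressor of the circadian clock, rose by 1.29 ± 0.248 (adjusted p = 0.00957), the 1 member called of 19 clock genes (4 without control stroke 4 and 2 without PAE stroke 3); Per1 stood at 0.26 ± 0.258. In the extracellular matrix list, 1 of 35 was called, and 2 without control naive 2, control stroke 2 or control stroke 3: Timp3, an inhibitor of metalloproteinases, was at 404, 508 and 618 CPM in stroke and 308, 342 and 367 CPM in naive females. The groups did not overlap, and the log2 change was 0.57 ± 0.0837 (adjusted p = 0.00244). Among 18 NRF2, 21 complement, 21 immediate early, 15 branched-chain amino acid and 7 thermogenesis genes edgeR called 0. Those with an unadjusted p under 0.05 numbered 6, 2, 2, 2 and 2, and DESeq2 called 0, 1, 1, 1 and 1. Of all 17072 genes 3955 had an unadjusted p under 0.05, and DESeq2 called 1747. Ucp1 did not pass the filter on low counts. Against 5.56% of all genes, the share called in either direction was 11.1% for lipolysis, 8.7% for glucocorticoid response and 8.33% for endoplasmic reticulum stress genes. It was 6.9% for fatty acid oxidation, 5.26% for the clock and 2.86% for extracellular matrix genes. For growth hormone genes it was 15.4%, for heat shock genes 13.3%, for insulin and glucose uptake genes 10.5% and for adipokines 7.69%. Without the 7 neuron-rich libraries edgeR called none of the citrate cycle, acute phase, lipolysis, growth hormone, mast cell, ribosomal protein, cell cycle or clock genes. DESeq2 then called 1 of 20, 2 of 16, 7 of 27, 2 of 13, 2 of 8, 1 of 61, 1 of 35 and 0 of 19 of them, and 6, 4, 13, 4, 3, 7, 12 and 2 had an unadjusted p under 0.05. Of all 17059 genes in that fit DESeq2 called 617, and 2607 had an unadjusted p under 0.05.

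Among the largest decreases was Gulo, the last enzyme of vitamin C synthesis, which rats retain. It was at 1.14, 2.51 and 13.8 CPM in stroke females, against 19.3, 34.5 and 62.9 CPM in naive females. The groups did not overlap, and the log2 change was −3.34 ± 0.460 (adjusted p = 0.00193), with −3.31 without the 7 neuron-rich libraries (adjusted p = 0.0903). Tnr, an extracellular matrix protein of the nervous system, fell by 3.95 ± 0.718 on the log2 scale (adjusted p = 0.00716), at 0, 1.62 and 4.32 CPM in stroke and 0.888, 24.0 and 61.9 CPM in naive females. Tmprss2, a membrane protease, fell by 2.27 ± 0.510 on the log2 scale (adjusted p = 0.0181), with a log2 change of −2.68 without the 7 neuron-rich libraries. S100b, a gene of glia and of fat cells, fell by 0.94 ± 0.227 on the log2 scale (adjusted p = 0.0265), but not without PAE stroke 3 (−0.88, adjusted p = 0.0604). In its list of 8 neuron and glia genes 2 others were called higher (37.5% called, against 5.56% of all genes). Log2 changes in that list ran from −1.45 to 2.09, at a median of −0.85. The number higher lay between 0 and 3 over the 16 fits that leave out 1 library. Otop1, a proton channel, rose by 3.38 ± 0.464 (adjusted p = 0.00174) at low counts, with 0.340, 3.94 and 9.76 CPM in stroke and 0.0822, 0.347 and 0.888 CPM in naive females. Among genes picked after their values were seen because the groups did not overlap, the Notch ligand Dll1 (−0.81 ± 0.130) and the Notch target Nrarp (−0.997 ± 0.142) both fell. The giant cadherin Fat1 (−0.62 ± 0.0737) fell too, and the chemerin receptor Cmklr1 (0.90 ± 0.114) and the neuropeptide Y receptor Npy1r (1.19 ± 0.181) rose. The 17 genes called without the neuron-rich libraries held, beside Cpt1b and Tmprss2, Prps1 (−1.39 in that fit), Gabbr1 (−1.26), Tmem182 (1.26) and Higd1a (0.96).

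Within each exposure fewer genes passed. In PAE females 141 of 17072 genes (0.826%) were called, 101 higher (0.592%) and 40 lower (0.234%). In control females 10 (0.0586%) were called, 5 higher (0.0293%) and 5 lower (0.0293%); at an unadjusted p under 0.05 the numbers were 2733 in PAE and 2539 in control females. Cpt1b and Cmklr1 were called in both. The respiratory chain had 12 of 68 genes called at a median of 0.41 in PAE females. In control females edgeR called 0 and DESeq2 3 at a median of 0.28, with 31 at an unadjusted p under 0.05. DESeq2 called 441 of all 17072 genes in control females. These counts rest on 4 libraries a group: the PAE count was 1 without PAE stroke 3, 3 without PAE naive 1, 4 without PAE naive 2, 6 without PAE stroke 2 and 441 without PAE stroke 1. The control count lay between 2 and 34, with 2 without control naive 1, control naive 3 or control stroke 3. The interaction, the test of whether the response differed with exposure, gave 0 calls (0%) in edgeR and 0 in DESeq2, with 936 genes at an unadjusted p under 0.05. The smallest p values among named genes included Slc16a10, an amino acid transporter, at a log2 change of −0.02 in PAE and −1.18 in control females, and Ulk3, at −0.07 and 0.69.

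Males, the most similar group of the series, gave 7 stroke and 7 naive libraries. Nuclear rRNA took 0.469 to 2.44% of counts in PAE stroke males, 0.663 to 28.0% in PAE naive males and 10.6 to 22.9% in control males. It took 7.38 to 50.0% in females. Counts outside rRNA lay between 5.41 and 21.3 M in males and between 4.74 and 13.3 M in females. The part of these differences in the comparison of the sexes was not tested. In 1 fit of all 30 adipose libraries 768 of 18425 genes (4.17%) were called in females, 2.8% higher and 1.37% lower, and 1286 (6.98%) in males, 3.63% higher and 3.35% lower. Of these, 335 were called in both with the same sign, 43.6% of the female and 26.0% of the male genes. The difference between the sexes gave 0 calls (0%) in edgeR, 14 in DESeq2 and 1012 genes at an unadjusted p under 0.05, so no gene is particular to females by edgeR's test. The log2 change of Cpt1b was 1.87 in females and 1.59 in males. Mc5r rose in males by 2.93 (adjusted p = 0.00715), and on the log2 scale Gulo fell by 4.40 and Cish by 2.46. The median of the respiratory chain list was 0.34 in females and 0.15 in males, where 5 of 68 rose, and that of the synthesis list was 0.66 and 0.29. Mural and smooth muscle markers had a median of −0.54 in females, with 0 of 10 called, and −1.81 in males, with 6 lower. Among the genes with the smallest p for the difference were Fgd5, an endothelial regulator (0.65 ± 0.138, adjusted p = 0.350), Alpg (1.58 ± 0.337) and the serotonin receptor Htr2a (2.61 ± 0.566), each given as female minus male. Some genes that rose in the fit of 16 libraries had the opposite sign in males in the fit of 30, without a called difference between the sexes. In that fit Susd5 was at 2.42 in females (adjusted p = 0.0465) and −1.79 in males, and Timp3 at 0.58 (adjusted p = 0.0432) and −0.07. Itga8, at 1.94 in females and −1.79 in males, did not pass in females there (adjusted p = 0.0528).

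**Figure D5:**
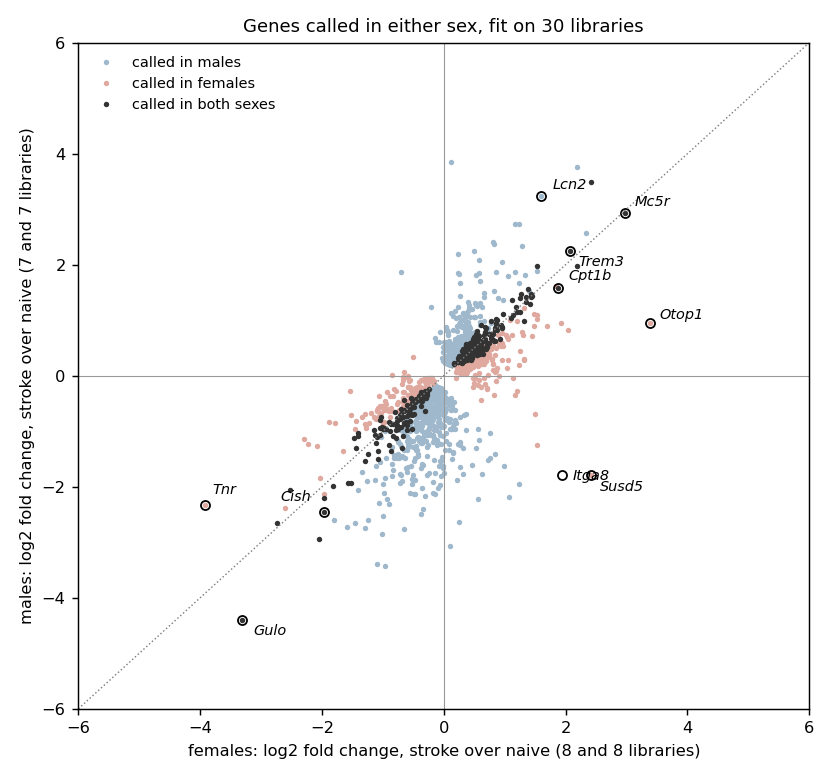
Log2 fold change, stroke over naive, in females (horizontal) and males (vertical) for genes called in either sex in the fit of 30 libraries. Of 768 genes called in females, 741 had the same sign in males, and 335 were called in both with the same sign. The share with the same sign among all 18425 genes tested was not computed.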

How the data were processed

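RNA was sequenced after rRNA depletion (TruSeq Stranded Total RNA, Ribo-Zero; NovaSeq, paired reads of 150 nt), per the labels. Trimmomatic, HISAT2, HTSeq and DESeq2 were run by the authors on assembly rn7, per the submitters' processing notes; versions were not given in the sources used here. The deposited values analysed are raw read counts per gene that the authors made with HTSeq, 34322 genes per library. The authors' comparison tables, with 90 per-sample columns of normalised values, were not used.

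The 16 female adipose libraries, grouped by the labels, were fitted with edgeR 4.0.16 in R 4.3.3: 76 nuclear and 2 mitochondrial rRNA genes left out, TMM scaling, filterByExpr (minimum count 10), exposure as covariate, robust quasi-likelihood test, two-sided, Benjamini-Hochberg over all genes tested, call at an adjusted p under 0.05. The within-exposure responses and their interaction came from a fit with 4 group means, and the sex difference from a fit of 30 libraries with 8. CPM use the TMM-scaled library size; fold changes are given on the log2 scale ± SE, whose median was 0.118 for genes averaging a log2 CPM of 1 or more. DESeq2 1.42.0 was an alternative, beside other scalings, filters, covariates and fits leaving out libraries. In simulated counts of the female comparison, over 16865 genes, 25, 44, 50 and 50 of 50 genes changed 1.5-, 2-, 3- and 4-fold were recovered. Each gene was drawn independently around a single mean, without an exposure effect or differences in tissue make-up between libraries. The changed genes were taken above a floor of mean CPM. The numbers therefore do not give the recovery in the real libraries.

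Genes were named by rule: the 10 largest changes in each direction among genes called, averaging 1 or more in log2 CPM and alike in sign under both exposures, up to 4 called members of each list, called cell type markers and 20 fixed genes; further genes are named as chosen after their values were seen, and some genes are not reported here. Members, lists and alternatives were chosen with earlier results of these data known. Libraries of a group were not copies of each other (variance ratio 11.1 to 80.9 over 24 pairs).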

Additional observations from a re-analysis of the deposited data

Results flagged for a closer look

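In groups of 8 libraries, 10 values stood apart from the other 7 by a gap test of the highest or lowest library; chance flags about 1 in 20 groups, and 188 groups were looked at. PAE stroke 3 was the highest stroke library for Atp5po (245.3 CPM), Mdh1 (1668 CPM), Pgk1 (275.7 CPM) and Rpl18 (287 CPM). Control stroke 2 was the highest stroke library for Clec9a (34.13 CPM), and control stroke 3 the highest for Htr2a (8.104 CPM). Among naive libraries, control naive 2 was the lowest for Mcpt2 (0.1104 CPM), and PAE naive 2 was the lowest for Susd5 (0.5128 CPM). Mitochondrial rRNA took 31.457% of counts in control stroke 3, the highest of the stroke libraries, and 9.8653% in PAE naive 1, the lowest of the naive libraries and the one with the most nuclear rRNA.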

How the results depend on the processing

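The count of 950 was 940 with RLE scaling, 686 without the filter on low counts and 1747 with DESeq2. It was 17 without the 7 neuron-rich libraries, 576 with the neuron level as covariate and 597 without PAE stroke 3, 3 alternatives added after seeing the data. The control count of 10 was 17 without the filter, 20 with mitochondrial rRNA kept, 20 with no rRNA gene left out, 6 in the fit of 30 libraries and 441 with DESeq2. The PAE count of 141 was 694 and the sex difference of 0 was 14 with DESeq2. Leaving out each replicate in turn gave 551 to 1166 for both exposures, 1 to 441 for PAE, 2 to 34 for control and 0 to 0 for the interaction and the sex difference. Same-numbered libraries correlated at r = −0.01 to 0.31, over 0.1 in 6 of 8 pairs, with 4 of 8 libraries closest to their own number; not every pair was over 0.1, so the numbers were not taken to pair them. These correlations do not settle whether the numbers pair libraries. A replicate block gave 983 calls, 265 in PAE, 22 in control and 0 for the interaction and the sex difference. Of the 983, 712 were among the 950, and 16 of the 74 named genes lost their call with the block. The cause of these shifts was not tested. The nuclear rRNA difference was −1.87 points, and 2.41 without PAE naive 1 (−3.69 to 2.41). None of the 74 called genes changed sign. Of genes that were not called, Pdk4 was −0.0474 without the library over 40% rRNA (−0.0522 to 0.145 leaving out 1 library), Lipe −0.0197 without the neuron-rich libraries, and Ccl2 −0.0043 with the neuron covariate and −0.0151 with the block (−0.153 to 0.279 leaving out 1 library).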
